A study of Homo sapiens with 12 samples.

Results

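HMOX1 and 8 enzymes or redox proteins whose genes are textbook targets of the transcription factor NRF2 were followed at the transcript level in FDX2-iKO ES2 cells. The group held 9 genes, namely HMOX1, NQO1, GCLC, GCLM, TXNRD1, SRXN1, OSGIN1, ME1 and TXN, chosen by symbol from the 58735 genes of the count table, and all 9 were among the 16891 genes abundant enough to be tested. ES2 is a human ovarian carcinoma line, and FDX2 is a mitochondrial ferredoxin of the machinery that builds iron-sulfur clusters. In these cells the endogenous FDX2 gene had been knocked out by genome editing and an edit-resistant, HA-tagged FDX2 was expressed from a TRE promoter (tTS and rtTA regulators) only while doxycycline (Doxy) was present, so that the + Doxy groups kept FDX2 and the groups without Doxy (wo Doxy) lost it. The 4 conditions were 20% O2 + Doxy, 20% O2 wo Doxy, 3% O2 + Doxy and 3% O2 wo Doxy, with 3 libraries of poly(A) RNA each. Cells at 20% O2 were harvested after 6 days, and those at 3% O2 after 4 days at 20% O2 and 3 more days at 3% O2, so time in culture differed with oxygen. All 4 groups carried the same knockout and transgene, and the study obtained 2 knockout clones and used clone #1 unless it said otherwise. The effect of Doxy itself cannot be told apart from that of FDX2 here, since no library with Doxy lacked FDX2. The comparisons below ask whether FDX2 loss moved these transcripts at each oxygen level, whether oxygen moved them, and whether the loss moved them equally at both.

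NRF2 (gene NFE2L2) is held at low levels by KEAP1, an adaptor that presents it to a CUL3 and RBX1 ubiquitin ligase, and electrophiles or oxidants that modify KEAP1 let NRF2 accumulate. It then pairs with a small MAF protein on the antioxidant response element, from which BACH1, a heme-sensing repressor, can keep it. Its targets make glutathione, reduce quinones, run the thioredoxin system, supply NADPH and handle heme and iron, and HMOX1 is the target best known for its dual control by NRF2 and BACH1.

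The sequences just upstream of the transcription start are shown because the group is defined by a shared regulator. RefSeq start sites on GRCh38.p14 were at hand for 8 of the 9 genes (all but HMOX1), and the 250 bases before each start were searched on both strands for the core of the antioxidant response element, TGACNNNGC. It was found for 3 of the 8 genes (37.5%), GCLM, TXNRD1 and ME1, against 13.2% of all 27305 genes with an entry. For TXNRD1 each of its 2 listed starts held a match. The element's letters were absent from these windows for NQO1, GCLC, SRXN1, OSGIN1 and TXN, which says nothing of sequence farther away. The windows are printed 5′ to 3′ in the direction of transcription, with the match in capitals, for the 3 genes with a match and for NQO1 and OSGIN1, 2 of the genes with large changes below. Their positions are chr1:93909431-93909680 (minus strand) for GCLM, chr12:104215529-104215778 and chr12:104286782-104287031 (plus strand) for TXNRD1, chr6:83431052-83431301 (minus strand) for ME1, chr16:69726561-69726810 (minus strand) for NQO1 and chr16:83952990-83953239 (plus strand) for OSGIN1.
GCLM: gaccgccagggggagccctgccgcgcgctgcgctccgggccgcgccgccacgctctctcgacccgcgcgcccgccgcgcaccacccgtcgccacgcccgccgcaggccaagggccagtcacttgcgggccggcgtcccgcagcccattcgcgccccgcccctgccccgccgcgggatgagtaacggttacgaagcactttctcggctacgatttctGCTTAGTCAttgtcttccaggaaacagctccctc
TXNRD1 start 1: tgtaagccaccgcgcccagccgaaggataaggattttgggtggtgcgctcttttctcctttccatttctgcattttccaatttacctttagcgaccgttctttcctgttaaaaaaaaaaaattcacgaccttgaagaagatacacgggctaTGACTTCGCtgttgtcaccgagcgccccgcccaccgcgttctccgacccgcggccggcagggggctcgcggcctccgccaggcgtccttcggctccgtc
TXNRD1 start 2: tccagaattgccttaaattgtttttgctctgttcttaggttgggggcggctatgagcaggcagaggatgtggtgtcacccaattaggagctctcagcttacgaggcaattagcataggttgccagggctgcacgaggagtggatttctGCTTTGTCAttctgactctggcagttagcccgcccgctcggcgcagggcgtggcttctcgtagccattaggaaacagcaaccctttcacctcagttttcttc
ME1: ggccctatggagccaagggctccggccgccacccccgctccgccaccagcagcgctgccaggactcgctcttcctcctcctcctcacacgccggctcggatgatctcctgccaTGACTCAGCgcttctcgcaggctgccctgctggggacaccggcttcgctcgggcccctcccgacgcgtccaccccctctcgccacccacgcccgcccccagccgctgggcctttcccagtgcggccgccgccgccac
NQO1: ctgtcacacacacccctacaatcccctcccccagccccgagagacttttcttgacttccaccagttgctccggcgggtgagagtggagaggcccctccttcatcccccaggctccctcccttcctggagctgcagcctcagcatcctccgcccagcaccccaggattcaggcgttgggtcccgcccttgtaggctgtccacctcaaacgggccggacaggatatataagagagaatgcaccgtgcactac
OSGIN1: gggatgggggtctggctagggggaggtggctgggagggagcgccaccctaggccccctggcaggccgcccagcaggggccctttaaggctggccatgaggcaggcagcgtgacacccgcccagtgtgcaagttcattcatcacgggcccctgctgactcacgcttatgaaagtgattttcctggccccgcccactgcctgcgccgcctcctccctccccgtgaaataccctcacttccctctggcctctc
The match lay at positions -34 to -26 from the start for GCLM, -99 to -91 and -102 to -94 for the first and the second TXNRD1 start, and -137 to -129 for ME1. Those of GCLM and of the second TXNRD1 start were on the minus strand of the window, the others on its plus strand. The 3 genes with a match behaved unlike each other after FDX2 loss at 20% O2, as described below, with TXNRD1 higher, GCLM lower and ME1 not called. A match is a string of letters and not a measured binding site.

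Library totals ran from 24958386 to 34313637 counts (median 29621780), and values are CPM, that is counts per megaread of library, with library sizes scaled by TMM. Carcinoma-line markers KRT8, KRT18, KRT7, PAX8, VIM, FN1 and CDH2 were present in every library, EPCAM and CDH1 were at or below 0.119 CPM, and of the genes of other cell types PTPRC, CD68, PECAM1 and ALB stayed at or below 0.282 CPM while CDH5 stood at 22.1 to 51.4 CPM. FDX2 (ENSG00000267673, chromosome 19) had only 2 to 13 counts per library and shared 70.9% of its exonic bases with other genes, so that the table could not check the knockout. In 3 libraries, 20% O2 + Doxy replicate 1, 3% O2 + Doxy replicate 3 and 3% O2 wo Doxy replicate 2, GC-rich transcripts stood above the other libraries of their condition (deviation against transcript GC, Pearson r 0.819, 0.676 and 0.561 across 11129 genes, which are not independent replicates). This touches the group at both ends, since HMOX1 (60.2% GC) and OSGIN1 (61.9%) were at the 88th and 92.4th percentile of GC content and TXN (38.4%), ME1 (39.5%) and GCLM (40.4%) at the 5.47th, 9.85th and 13.8th. Results that rest on it are given also from a fit with each library's GC trend removed and from a fit without those 3 libraries, and the part of GC in the results as reported was not tested.

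Per kilobase of exon the 9 transcripts spanned a wide range. TXN, the disulfide-reducing thioredoxin, was the most abundant at a mean of 223 CPM per kb over the 12 libraries, followed by TXNRD1, the reductase that recharges it, at 119, and by the quinone reductase NQO1 at 45.8 CPM per kb. GCLM, the modifier subunit of glutamate-cysteine ligase, stood at 18.3 and ME1, the NADPH-producing malic enzyme of the cytosol, at 10.2 CPM per kb. HMOX1 (4.64), GCLC (4.14), the catalytic ligase subunit, SRXN1 (2.88), which repairs overoxidized peroxiredoxins, and OSGIN1 (1.85), an oxidative-stress-induced growth inhibitor, were the lowest, so the 2 transcripts that later showed the largest FDX2-loss folds were low ones. By condition, 20% O2 wo Doxy ranked first for HMOX1, NQO1, GCLC, TXNRD1, OSGIN1 and ME1. Its libraries lay clear of those of the next condition for HMOX1, NQO1, TXNRD1 and OSGIN1, and overlapped them for GCLC and ME1. GCLM, SRXN1 and TXN were highest at 20% O2 + Doxy, clear of the next condition for GCLM alone. The 4 conditions separated completely only for NQO1, in the order 20% O2 wo Doxy, 20% O2 + Doxy, 3% O2 wo Doxy and 3% O2 + Doxy.

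**Figure D1:**
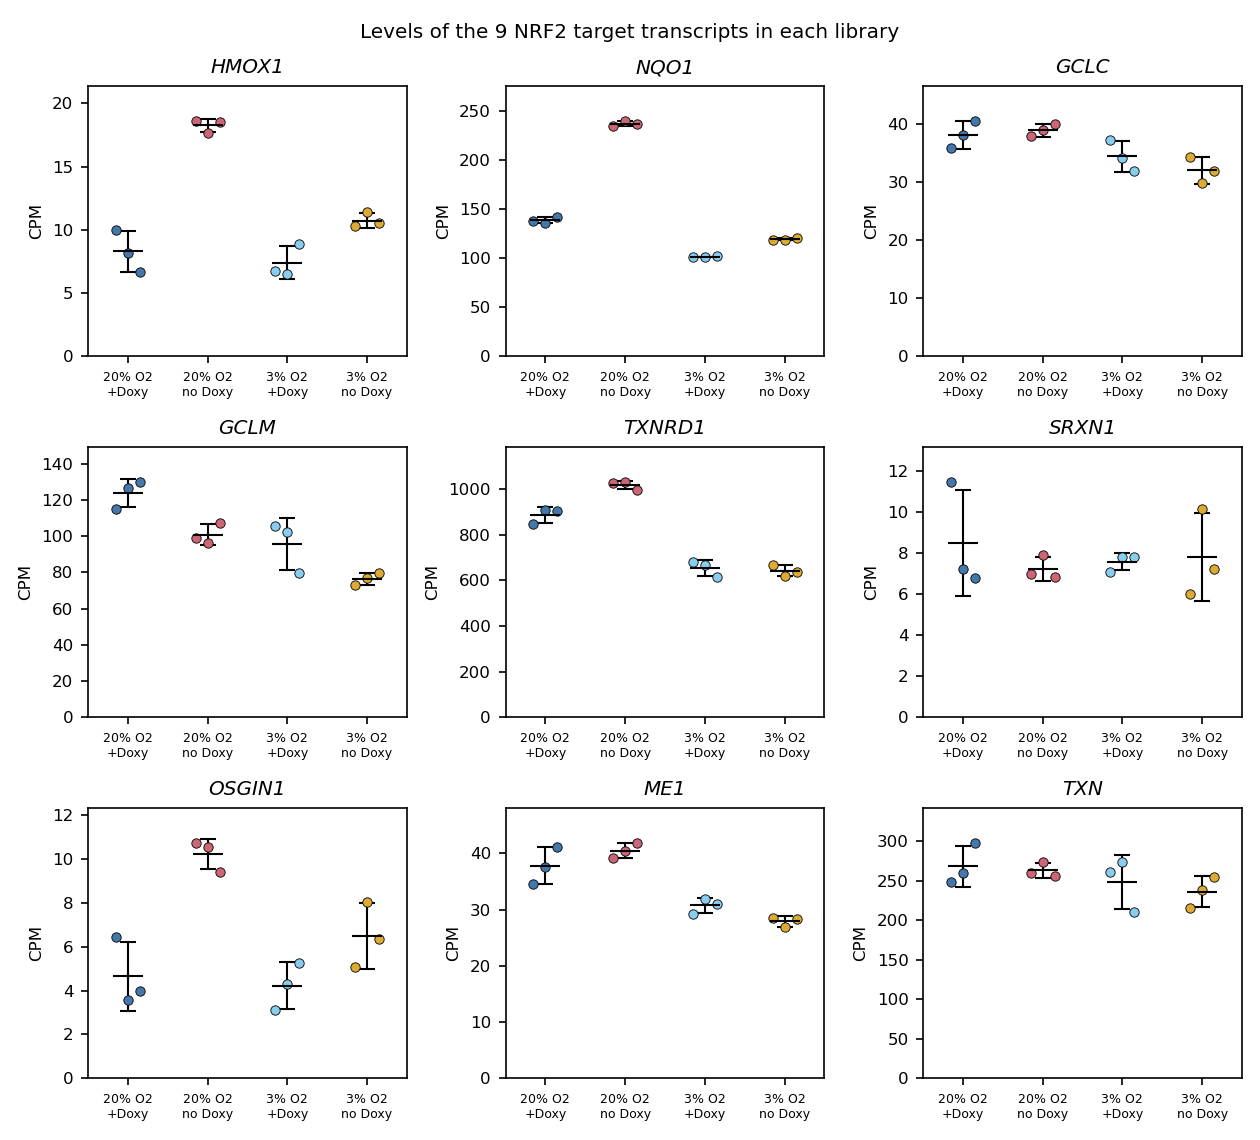
Each panel plots one transcript in CPM (vertical axis, from 0) in the 4 conditions, with a point for each library and a bar at the mean ± SD (n = 3). HMOX1, NQO1 and OSGIN1 stand highest in the 3 libraries of 20% O2 wo Doxy, NQO1 at 235 to 239 CPM against 136 to 142 at 20% O2 + Doxy, while SRXN1 overlaps between all conditions.

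At 20% O2, FDX2 loss went with higher HMOX1, NQO1, OSGIN1 and TXNRD1 and lower GCLM. Thus 5 of the 9 transcripts passed the test, 4 upward and 1 downward, where 35.3% of all tested genes passed, 17.6% higher and 17.7% lower. The median log2 fold change of the 9 was 0.10, beside 0.01 over all tested genes. Libraries did not overlap for the same 5, where 52.3% of all tested genes did not, 26.5% higher and 25.8% lower. With the GC trend removed the same 5 were called, where 46.7% of all tested genes were, and without the 3 GC-rich libraries again, where 42.5% were. Adjusted p-values here and below are those of the edgeR quasi-likelihood test after Benjamini-Hochberg adjustment over the 16891 tested genes, with a call at 0.05, and the ± after a log2 fold change is its SE. The series text calls the 3 libraries biological replicates without saying whether they came from separate cultures, so the p-values measure the spread between these libraries. In RNA from whole cultures, fewer expressing cells and less RNA per cell cannot be told apart.

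Positions are those of GENCODE 29 on GRCh38. HMOX1 (ENSG00000100292, chromosome 22, 35380361 to 35394214, plus strand), which opens heme to biliverdin, carbon monoxide and iron, was at 10.005, 8.15 and 6.70 CPM in the 3 libraries of 20% O2 + Doxy and at 18.6, 17.7 and 18.5 CPM without Doxy. Every library without Doxy was above every library with it. The fold was 2.20 (log2 fold change 1.14 ± 0.14, adjusted p = 1.31e-04, edgeR). In the + Doxy group the highest library was the GC-rich replicate 1, and the log2 fold change was 1.36 ± 0.07 with the GC trend removed and 1.29 ± 0.09 without the 3 GC-rich libraries.

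NQO1 (ENSG00000181019, chromosome 16, 69706996 to 69726951, minus strand), which reduces quinones without leaving a radical, was the most tightly measured of the group. Its libraries read 138, 136 and 142 CPM with Doxy and 235, 239 and 237 CPM without, with no overlap. The fold was 1.71 (log2 0.77 ± 0.04, adjusted p = 3.22e-07, edgeR). An antisense gene covers 17.7% of its exonic bases on the opposite strand, and the strand setting of the counting is not given in the sources used here.

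OSGIN1 (ENSG00000140961, chromosome 16, 83948282 to 83966332, plus strand) was at 6.46, 3.55 and 3.97 CPM with Doxy and at 10.7, 10.5 and 9.43 CPM without. The groups did not overlap, and again replicate 1 was the highest + Doxy library. Its fold was 2.19 (log2 1.13 ± 0.25, adjusted p = 0.00457, edgeR), and 13.9% of its exonic bases were shared with a protein-coding gene on the same strand. The log2 value was 1.40 ± 0.14 with the GC trend removed.

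Of the thioredoxin system, the reductase rose and its substrate was not called. TXNRD1 (ENSG00000198431, chromosome 12, 104215779 to 104350305, plus strand) read 845, 907 and 905 CPM with Doxy and 1025, 1029 and 997 CPM without, a rise in every library over every control library. The rise was 14.8% (log2 0.20 ± 0.05, adjusted p = 0.00998, edgeR). It fell short of the threshold when 20% O2 + Doxy replicate 1 or any one 20% O2 wo Doxy library was left out (adjusted p = 0.0637 to 0.0933, edgeR), and without a filter on low counts (adjusted p = 0.174, edgeR). TXN (ENSG00000136810, chromosome 9, 110243811 to 110256640, minus strand) was at 248, 261 and 298 CPM with Doxy and 260, 274 and 256 CPM without. The groups overlapped, with a log2 fold change of -0.03 and a 95% interval of -0.25 to 0.20. SRXN1 (ENSG00000271303, chromosome 20, 646615 to 653370, minus strand) was at 11.4, 7.21 and 6.76 CPM against 6.96, 7.90 and 6.83 CPM, also overlapping (log2 -0.23 ± 0.21, adjusted p = 0.449, edgeR). Its value is uncertain, because 85.0% of its exonic bases belong also to another protein-coding gene on the same strand, and how shared reads were counted is not given in the sources used here.

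The 2 subunits of glutamate-cysteine ligase, the rate-limiting enzyme of glutathione synthesis, did not move together. GCLM (ENSG00000023909, chromosome 1, 93885205 to 93909456, minus strand) read 115, 127 and 130 CPM with Doxy and 99.1, 95.9 and 107 CPM without, every library without Doxy being below every control. The log2 fold change was -0.30 ± 0.10 (adjusted p = 0.0356, edgeR), and it lost the call when any one 20% O2 library but + Doxy replicate 1 and wo Doxy replicate 3 was left out (adjusted p = 0.0922 to 0.117, edgeR) or only genes with at least 10 counts in every library were kept (adjusted p = 0.0517, edgeR). With the GC trend removed it was -0.31 ± 0.06 (adjusted p = 9.31e-04, edgeR). GCLC (ENSG00000001084, chromosome 6, 53497341 to 53616970, minus strand) read 35.7, 38.0 and 40.4 CPM with Doxy and 37.8, 38.9 and 40.0 CPM without. These overlapped throughout, with a log2 fold change of 0.03 and a 95% interval of -0.13 to 0.19.

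ME1 (ENSG00000065833, chromosome 6, 83210389 to 83431071, minus strand) was at 34.6, 37.5 and 41.2 CPM with Doxy and 39.2, 40.4 and 41.8 CPM without. The groups overlapped, and the log2 fold change of 0.10 had a 95% interval of -0.05 to 0.25.

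**Figure D2:**
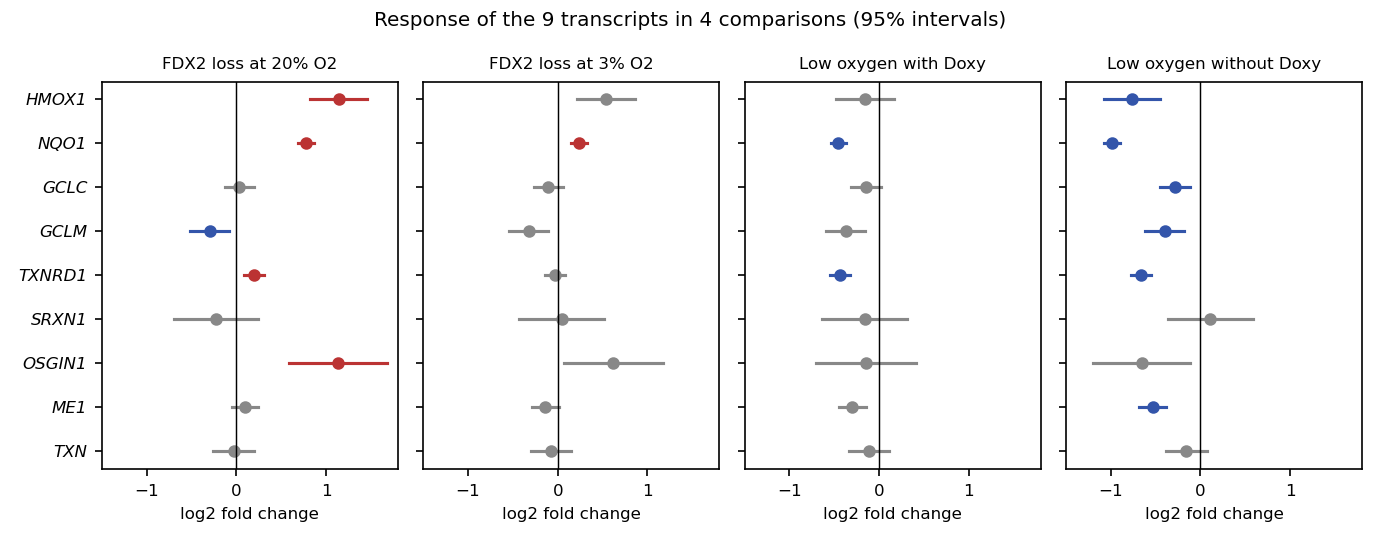
Points are log2 fold changes and lines their 95% intervals for the 9 transcripts in the 4 comparisons (horizontal axis, log2 scale), in red where higher, in blue where lower and in gray where not called at an adjusted p of 0.05. FDX2 loss at 20% O2 shows 4 red and 1 blue points, FDX2 loss at 3% O2 only NQO1, and low oxygen 2 blue points with Doxy and 6 without.

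At 3% O2, FDX2 loss raised NQO1, and no other transcript of the group was called. That is 1 of 9, where 7.31% of all tested genes passed and 4.2% were higher. Libraries did not overlap for 3 of 9, HMOX1 and NQO1 higher and ME1 lower, where 24.6% of all tested genes did not, 13.4% higher and 11.2% lower. The median log2 fold change of the 9 was -0.03, beside 0.04 over all tested genes. This comparison shares no library with that at 20% O2.

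NQO1 read 101, 101 and 102 CPM in the 3 libraries of 3% O2 + Doxy and 119, 119 and 121 CPM in those without Doxy, with no overlap. Its rise was 17.9% (log2 0.24 ± 0.04, adjusted p = 0.00551, edgeR). The call was lost when the 3% O2 libraries were fitted alone (adjusted p = 0.103, edgeR), with the replicate block in that fit (adjusted p = 0.349, edgeR) and without a filter on low counts (adjusted p = 0.107, edgeR).

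HMOX1 was at 6.77, 6.53 and 8.89 CPM with Doxy and 10.3, 11.4 and 10.5 CPM without. Every library without Doxy was above every library with it. The log2 fold change was 0.54 ± 0.15 at an adjusted p of 0.0510 (edgeR), just outside the threshold. Both + Doxy replicate 3 and wo Doxy replicate 2, the highest library of each group, were GC-rich. With the GC trend removed HMOX1 was called higher (log2 0.48 ± 0.07, adjusted p = 6.27e-04, edgeR), as it was without the 3 GC-rich libraries (0.62 ± 0.10, adjusted p = 0.00500, edgeR) and without 3% O2 + Doxy replicate 3 alone (0.69, adjusted p = 0.0176, edgeR).

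OSGIN1 was at 3.11, 4.32 and 5.24 CPM with Doxy and 5.07, 8.06 and 6.33 CPM without, an overlap of 1 library on each side. Its log2 fold change was 0.62 ± 0.25 (adjusted p = 0.167, edgeR) and became a call with the GC trend removed (0.53 ± 0.14, adjusted p = 0.0185, edgeR). GCLM was at 105, 103 and 79.4 CPM with Doxy, where the GC-rich replicate 3 stood apart, and at 72.8, 76.9 and 79.6 CPM without. Its log2 fold change of -0.32 ± 0.10 (adjusted p = 0.0737, edgeR) was near that at 20% O2, and it too was called lower with the GC trend removed (-0.26 ± 0.06, adjusted p = 0.00911, edgeR) and without 3% O2 + Doxy replicate 3 (-0.44, adjusted p = 0.00516, edgeR). With the GC trend removed 4 of the 9 transcripts were called, NQO1 included, where 19.5% of all tested genes were, and in the fit without the 3 GC-rich libraries again 4, where 15.2% were.

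The other 5 transcripts were not called at 3% O2 in any of these 3 fits. TXNRD1, called higher at 20% O2, was at 680, 666 and 615 CPM with Doxy and 669, 621 and 636 CPM without, and its log2 fold change of -0.03 had a 95% interval of -0.14 to 0.08. ME1 was at 29.3, 31.9 and 31.0 CPM with Doxy and 28.6, 26.8 and 28.4 CPM without, all lower but not called (log2 -0.14 ± 0.07, adjusted p = 0.257, edgeR). GCLC ran from 31.9 to 37.1 CPM against 29.7 to 34.3 CPM, TXN from 210 to 274 CPM against 216 to 254 CPM, and SRXN1 from 7.09 to 7.82 CPM against 6.00 to 10.2 CPM, all overlapping.

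The rise after FDX2 loss was smaller at 3% than at 20% O2 for NQO1. The log2 response at 3% O2 minus that at 20% O2 was -0.54 ± 0.06 (adjusted p = 5.31e-04, edgeR interaction contrast), and NQO1 was the only transcript of the group called, 1 of 9 where 7.29% of all tested genes were and 4.08% with a negative difference. HMOX1 had a difference of -0.60 ± 0.20 (adjusted p = 0.103, edgeR), TXNRD1 of -0.23 ± 0.07 (adjusted p = 0.0833, edgeR) and OSGIN1 of -0.51 ± 0.35 (adjusted p = 0.413, edgeR). For GCLM the difference was -0.03, with a 95% interval of -0.33 to 0.28.

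NQO1 was called also in both fits that handle GC, and further transcripts were called there. With the GC trend removed HMOX1 differed by -0.88 ± 0.09 (adjusted p = 9.78e-05, edgeR), OSGIN1 by -0.87 ± 0.19 (adjusted p = 0.00851, edgeR) and TXNRD1 by -0.20 ± 0.05 (adjusted p = 0.0139, edgeR), all called beside NQO1, that is 4 of 9 where 18.9% of all tested genes were. Without the 3 GC-rich libraries the same 4 were called, HMOX1 at -0.67 ± 0.13 (adjusted p = 0.0114, edgeR), where 15% of all genes were. Leaving out 20% O2 + Doxy replicate 1 alone also brought HMOX1 past the threshold (-0.77, adjusted p = 0.0297, edgeR), and leaving out 3% O2 + Doxy replicate 3 did so for TXNRD1 (-0.26, adjusted p = 0.0254, edgeR).

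**Figure D3:**
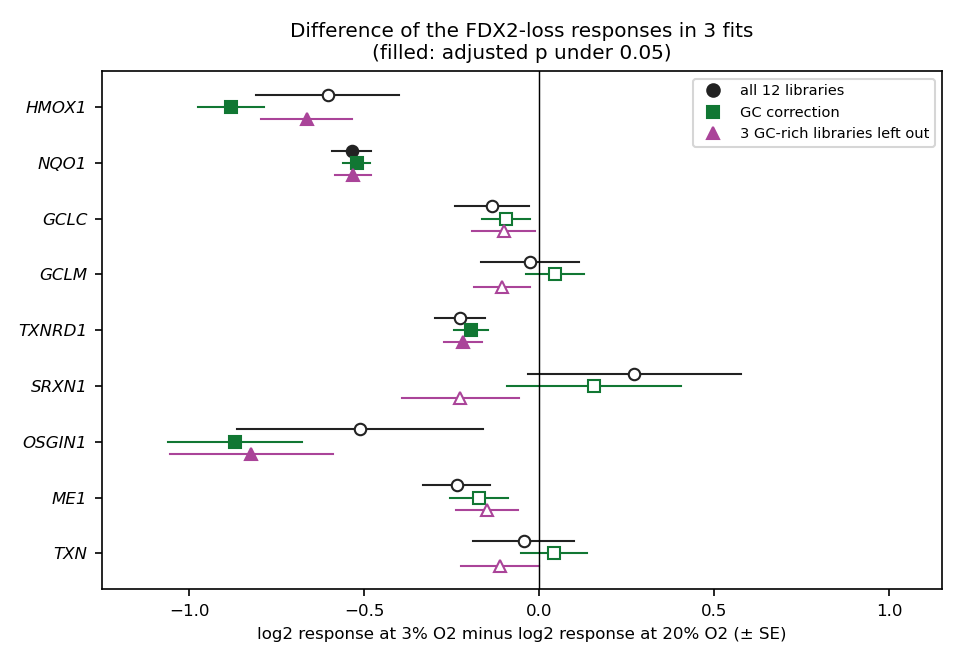
The horizontal axis gives the log2 response to FDX2 loss at 3% O2 minus that at 20% O2 for each transcript, with bars of ± SE, from all 12 libraries (circles), with the GC trend removed (squares) and without the 3 GC-rich libraries (triangles), filled where the adjusted p is under 0.05. NQO1 is filled in all 3 fits (-0.54, -0.52 and -0.53), and HMOX1, OSGIN1 and TXNRD1 in the latter 2.

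Low oxygen lowered NQO1 and TXNRD1 in cells that kept FDX2. With Doxy, 2 of 9 transcripts were called, both lower, where 2.02% of all tested genes were called and 0.385% lower. NQO1 went from 136 to 142 CPM at 20% O2 to 101 to 102 CPM at 3% O2, a log2 fold change of -0.45 ± 0.04 (adjusted p = 8.83e-05, edgeR). TXNRD1 went from 845 to 907 CPM to 615 to 680 CPM, a log2 fold change of -0.44 ± 0.05 (adjusted p = 6.71e-04, edgeR). Neither overlapped between oxygen levels. ME1 and GCLM did not overlap either and were lower at 3% O2 without being called (log2 -0.30 ± 0.07, adjusted p = 0.0525, and -0.37 ± 0.10, adjusted p = 0.0914, edgeR), so that 4 of 9 were separated, all downward, where 15.4% of all tested genes were and 6.61% downward. Without 20% O2 + Doxy replicate 1 ME1 was called (adjusted p = 0.0170, edgeR). With the GC trend removed ME1 and GCLM were called too, 4 of 9 where 7.76% were, and without the 3 GC-rich libraries again 4, where 3.03% were. All 9 estimates were below 0, with a median of -0.16. HMOX1 and OSGIN1 overlapped between oxygen levels, HMOX1 at 6.70 to 10.005 CPM against 6.53 to 8.89 CPM (log2 -0.16, 95% interval -0.48 to 0.16) and OSGIN1 at 3.55 to 6.46 CPM against 3.11 to 5.24 CPM.

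In cells without FDX2 more of the group was called lower at 3% O2. Of the 9, 6 were called, all lower, where 25.8% of all tested genes were called and 11.9% lower. The median log2 fold change of the 9 was -0.53, beside 0.07 over all tested genes. NQO1 was at 119 to 121 CPM where it had been at 235 to 239 CPM (log2 -0.99 ± 0.04, adjusted p = 2.69e-07, edgeR), a fold of 0.504. HMOX1 was at 10.3 to 11.4 CPM against 17.7 to 18.6 CPM (log2 -0.77 ± 0.14, adjusted p = 0.00329, edgeR) and TXNRD1 at 621 to 669 CPM against 997 to 1029 CPM (log2 -0.66 ± 0.05, adjusted p = 1.30e-05, edgeR). ME1 fell by 0.53 ± 0.07 on the log2 scale (adjusted p = 3.41e-04, edgeR), GCLM by 0.40 ± 0.10 (adjusted p = 0.0143, edgeR) and GCLC by 0.28 ± 0.07 (adjusted p = 0.0185, edgeR), the last 2 losing their call when certain single libraries were left out. GCLM did so without 20% O2 wo Doxy replicate 3, and GCLC without replicate 2 or 3 of either condition (adjusted p = 0.0503 to 0.0860, edgeR, over these). OSGIN1 was at 5.07 to 8.06 CPM against 9.43 to 10.7 CPM, without overlap, at a log2 fold change of -0.66 ± 0.24 and an adjusted p of 0.0702 (edgeR). In this comparison same-numbered libraries tended to deviate together (correlations 0.190 to 0.497, other pairings -0.473 to 0.231). That is a hint of pairing, which the sample labels do not state. With the number as a block OSGIN1 was called (-0.69, adjusted p = 0.0272, edgeR), as it was with the GC trend removed (-1.0 ± 0.13, adjusted p = 1.57e-04, edgeR). HMOX1 was -1.05 ± 0.07 in the latter fit. Counting without a test, 8 of 9 transcripts lay below in every library at 3% O2, all but SRXN1, where 49.4% of all tested genes were separated and 22% in that direction. In both fits that handle GC 7 of 9 were called, where 34.1% of all tested genes were with the GC trend removed and 33.5% without the 3 GC-rich libraries. These oxygen comparisons share their libraries with the FDX2-loss comparisons above, so they are other views of the same 12 values per gene. The difference between the 2 oxygen responses is the same interaction contrast as above, which called NQO1 alone in the reported fit. GCLM, called only without Doxy, had log2 fold changes of -0.37 with and -0.40 without it.

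Among themselves the 9 transcripts fell into unlike patterns over the 12 libraries, given as Pearson r of log2 CPM over libraries that share 4 conditions and the GC differences, with no test. HMOX1 ran with OSGIN1 (r = 0.94) and NQO1 (0.86), NQO1 with TXNRD1 (0.89), and TXNRD1 with ME1 (0.94), and GCLC with ME1 (0.87) and TXNRD1 (0.86). HMOX1 had no such likeness to GCLC (0.19), SRXN1 (-0.00), TXN (-0.10) or GCLM (-0.22). The genes most like HMOX1 among 10764 tested genes with a symbol and a mean of at least 5 CPM were SLC13A3 (r = 0.99), the dicarboxylate transporter NaDC3, SQSTM1 (0.99), CLCN4 (0.99), MDK (0.98), the growth factor midkine, and GNPDA1 (0.98). OSGIN1 ranked 89th and NQO1 514th in that order.

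Transcripts of the machinery that sets NRF2 activity changed in part. After FDX2 loss at 20% O2, 5 of the 12 regulators fixed as a list were higher and 2 lower, 58.3% called where 35.3% of all genes were. NFE2L2 itself, encoding NRF2, was at 73.1, 82.6 and 80.7 CPM with Doxy and 83.3, 82.8 and 82.1 CPM without (log2 0.07 ± 0.05, adjusted p = 0.350, edgeR). KEAP1 ran from 65.5 to 88.6 CPM against 67.6 to 71.3 CPM, overlapping, and RBX1, MAFF and NFE2L1 were not called either. SQSTM1, the autophagy receptor p62 that binds KEAP1 and is itself an NRF2 target, rose from 191, 156 and 141 CPM to 390, 393 and 388 CPM (log2 1.27 ± 0.13, adjusted p = 2.83e-05, edgeR). All 3 libraries without Doxy were above those with it, and 22% of its exonic bases were shared with another gene. The repressor BACH1 rose from 53.8, 63.7 and 66.1 CPM to 92.8, 93.8 and 98.0 CPM (log2 0.63 ± 0.08, adjusted p = 1.44e-04, edgeR), and its relative BACH2 by 1.12 on the log2 scale. The small MAF genes MAFG (log2 0.42) and MAFK (0.32) rose, CUL3 fell by 0.26, and NFE2L3, an NRF2 relative, fell from 41.2 to 41.8 CPM to 24.5 to 24.9 CPM (log2 -0.75 ± 0.07, adjusted p = 1.07e-05, edgeR).

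At 3% O2 the regulators called after FDX2 loss were MAFK, higher (log2 0.54), and NFE2L2 and NFE2L3, lower, 3 of 12 where 7.31% of all genes were called. NFE2L2 was at 82.0, 82.6 and 80.7 CPM with Doxy and 70.5, 66.5 and 71.3 CPM without (log2 -0.24 ± 0.05, adjusted p = 0.0237, edgeR), all lower. Responses to the loss of FDX2 were unequal at the 2 oxygen levels for SQSTM1 (-0.92 ± 0.18, adjusted p = 0.0125), BACH1 (-0.48 ± 0.11, adjusted p = 0.0289), NFE2L2 (-0.31 ± 0.08, adjusted p = 0.0364) and NFE2L3 (0.41 ± 0.09, adjusted p = 0.0256), by edgeR. That was 33.3% of the 12, where 7.29% of all tested genes were called. Low oxygen called none of the 12 with Doxy (3 at an unadjusted p under 0.05), where 2.02% of all tested genes were called. Without Doxy it lowered SQSTM1 (log2 -0.90), BACH1 (-0.37), MAFG (-0.34) and NFE2L2 (-0.25) and raised NFE2L3 (0.20), 41.7% called where 25.8% of all tested genes were.

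**Figure D4:**
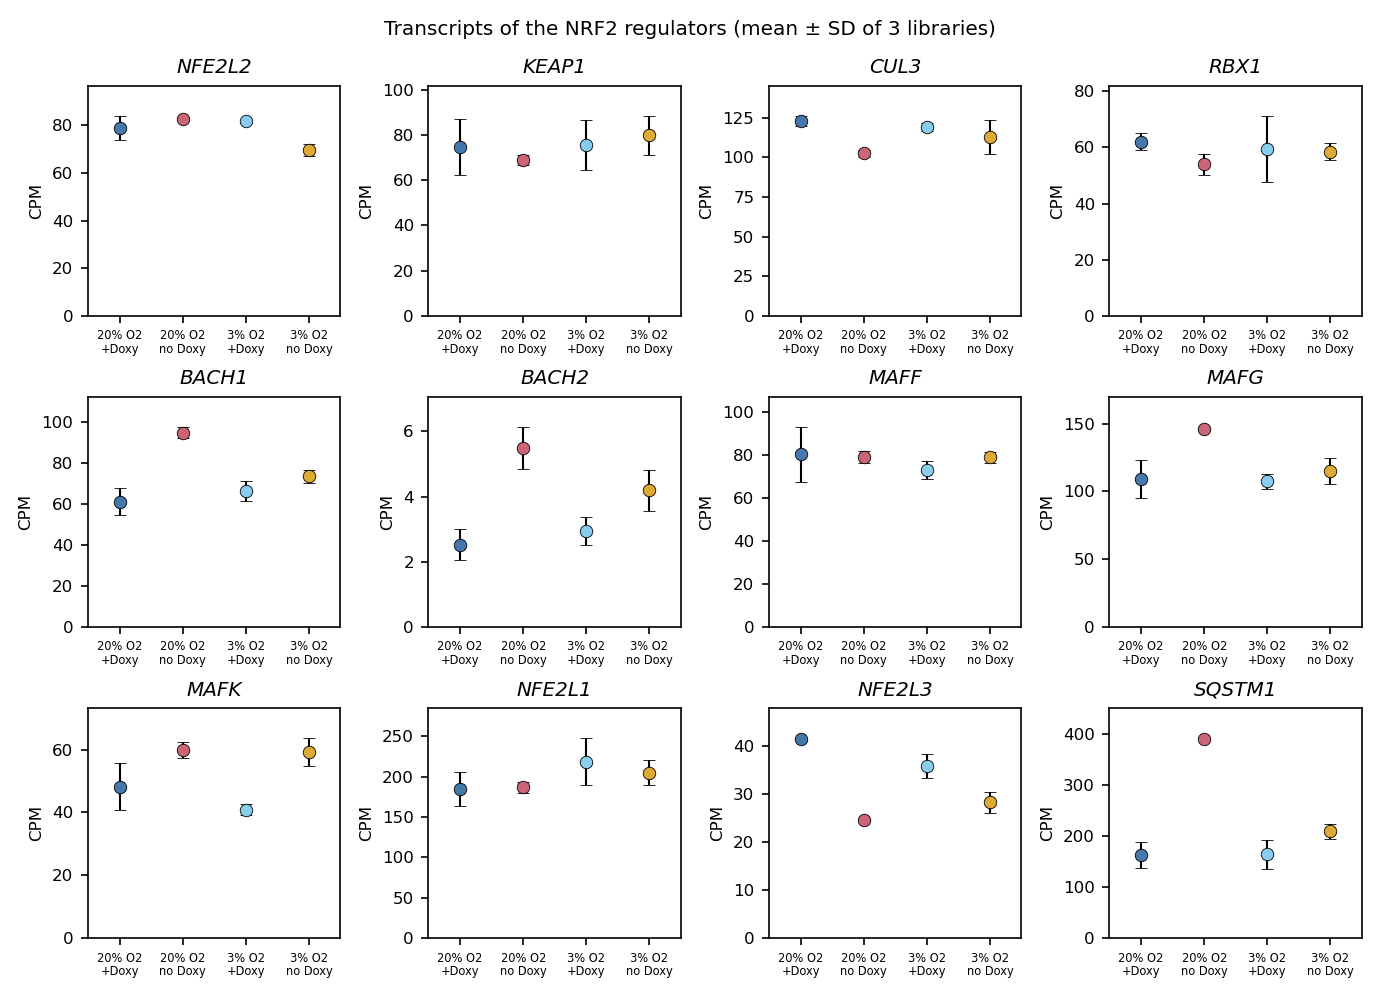
Points are the mean CPM and bars the SD of 3 libraries for the 12 regulator transcripts in the 4 conditions (vertical axes from 0). SQSTM1 and BACH1 stand highest and NFE2L3 lowest at 20% O2 wo Doxy, whereas NFE2L2 is at 66.5 to 71.3 CPM at 3% O2 wo Doxy and between 73.1 and 83.3 CPM elsewhere.

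Beyond the group, 40 other NRF2 targets were listed and 34 were tested, AKR1C2, AKR1B10, GPX2, GSTM1, ALDH3A1 and SLC40A1 being too low. FDX2 loss at 20% O2 raised 17 and lowered 8 of them, 73.5% called where 35.3% of all genes were. Their median log2 fold change was 0.22, beside 0.01 over all genes. ABCC3, an efflux pump for organic anions, rose from 2.84, 2.86 and 2.53 CPM to 9.05, 10.2 and 9.65 CPM (log2 1.81 ± 0.11, adjusted p = 1.08e-06, edgeR). SLC7A11, the cystine importer subunit that feeds glutathione synthesis, rose from 25.4, 28.3 and 30.2 CPM to 62.3, 60.0 and 68.3 CPM (log2 1.18 ± 0.11, adjusted p = 1.42e-05, edgeR), and TRIM16L and the aldose reductase AKR1B1 rose by 1.07 and 0.89. Both ferritin chains rose, FTH1 by 0.79 and FTL by 0.88 on the log2 scale, FTH1 with 62.4% of its exonic bases shared with other genes. Of the pentose-phosphate genes PGD (log2 -0.07) and TALDO1 (-0.18) were not called and TKT was lower (-0.40). The carbonyl reductases CBR1 (-0.48) and CBR3 (-0.59), GSTP1 (-0.28), IDH1 (-0.40), PRDX1 (-0.22), ABCC4 (-0.15) and ABCG2 (-0.31) were the other 7 that fell.

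At 3% O2, FDX2 loss raised 5 of the 34 and lowered 1, 17.6% called where 7.31% of all genes were. Those raised were ABCC3 (log2 0.89), AKR1C3 (0.51), AKR1B1 (0.42), ABCC2 (0.40) and FTH1 (0.39), and the 1 lowered was ABCC4 (-0.19). SLC7A11 was at 22.7, 21.7 and 16.9 CPM with Doxy and 16.4, 17.6 and 19.1 CPM without, and its response differed from that at 20% O2 by -1.39 ± 0.16 (adjusted p = 7.83e-04, edgeR). In all 8 of the 34 had differing responses, 7 of them smaller at 3% O2, where 7.29% of all genes differed, among them ABCC3 (-0.92), TRIM16L (-0.84), FTL (-0.63) and AKR1B1 (-0.48), and CBR3 with the opposite sign (0.77). Low oxygen with Doxy called none of the 34 by edgeR (7 at an unadjusted p under 0.05, and 3 by DESeq2), where 2.02% of all tested genes were called by edgeR. Without Doxy it lowered 16 and raised 4, 58.8% called where 25.8% of all tested genes were and 11.9% lower, with SLC7A11 (-1.84), TRIM16L (-1.12), MGST1 (-0.80) and ABCC3 (-0.74) among the former. These counts varied with the setting. Without any 1 of 4 libraries at 3% O2 (all but + Doxy replicate 3 and wo Doxy replicate 1) the count for FDX2 loss at 3% O2 was 2 in place of 6. In those fits 3.35% to 4.43% of all tested genes were called. With the GC trend removed the count was 10 of 34, where 19.5% of all tested genes were called. For the difference it was then 17 of 34, where 18.9% of all tested genes were called.

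**Figure D5:**
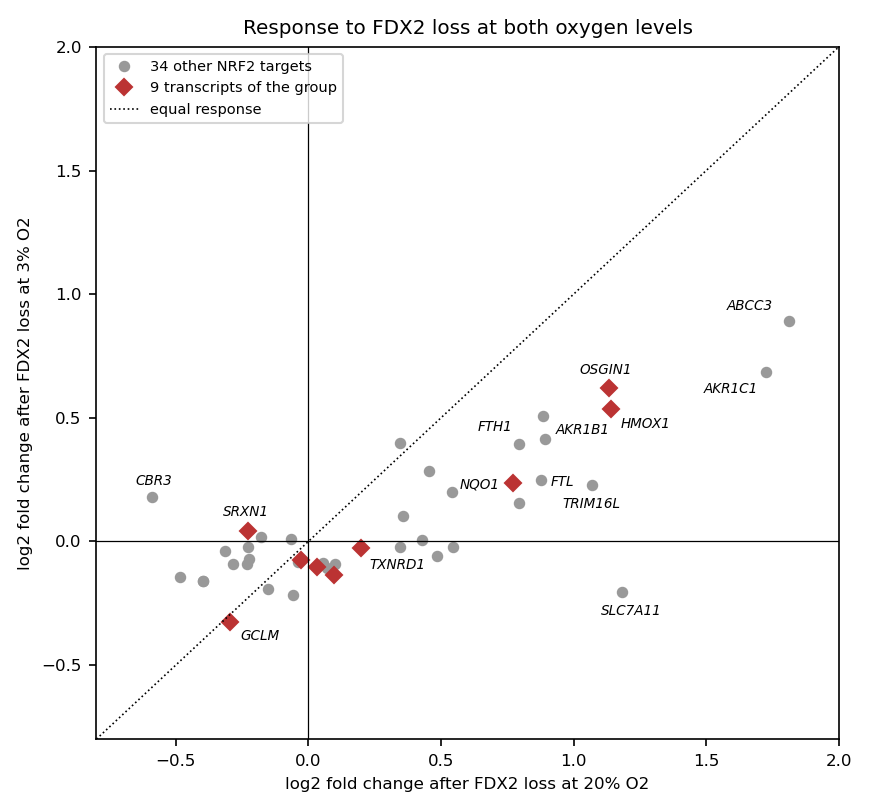
Each point is a transcript, with its log2 fold change after FDX2 loss at 20% O2 on the horizontal axis and at 3% O2 on the vertical axis, for the 34 other NRF2 targets (gray) and the 9 transcripts of the group (red), and the dotted line marks equal responses. ABCC3 (1.81 and 0.89), HMOX1 (1.14 and 0.54) and OSGIN1 (1.13 and 0.62) lie to the right of the line, SLC7A11 (1.18 and -0.20) below 0 on the vertical axis, and GCLM (-0.30 and -0.32) on it.

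The pathways the 9 enzymes work in gave mixed counts. Of 22 tested genes of glutathione handling, FDX2 loss at 20% O2 raised 8 and lowered 3, 50% called where 35.3% of all tested genes were. CHAC1, which breaks down glutathione, rose by 1.79 ± 0.20 on the log2 scale, and SLC3A2, the partner chain of SLC7A11, by 0.99, while the mitochondrial glutaredoxin GLRX5 fell by 0.55. At 3% O2 the 2 called were GGT5 (0.83) and SLC3A2 (0.29), both higher, 9.09% where 7.31% of all tested genes were called. Of 18 genes of the thioredoxin and peroxiredoxin systems 5 rose and 3 fell at 20% O2, 44.4% called where 35.3% of all tested genes were, with SESN2 (1.74), TXNIP (1.52), the thioredoxin-binding inhibitor, and SESN3 (0.93) highest and MSRB1 (-0.60) lowest. TXNIP, at 66.3 to 76.7 CPM with Doxy and 203 to 209 CPM without at 20% O2, was lower without Doxy at 3% O2 (123 to 136 CPM against 99.4 to 111 CPM, log2 -0.34), and its responses differed by -1.86 ± 0.10 (adjusted p = 3.74e-06, edgeR). Of 14 NADPH-supplying genes 3 rose and 3 fell at 20% O2, 42.9% called where 35.3% of all tested genes were, the mitochondrial folate enzymes ALDH1L2 (1.28) and MTHFD2 (0.41) up and IDH1 (-0.40) and ME2 (-0.39) down among them.

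Around HMOX1, 14 genes of heme breakdown, transport and synthesis were tested, of which 3 rose and 5 fell after FDX2 loss at 20% O2, 57.1% called where 35.3% of all tested genes were. None was called by edgeR at 3% O2 (4 at an unadjusted p under 0.05), where 7.31% of all tested genes were. The 3 that rose were SLC48A1, a heme transporter of endolysosomes (log2 0.55), ALAS1, the first enzyme of heme synthesis (0.50), and BLVRB, a biliverdin reductase (0.45). HMOX2, the constitutive heme oxygenase, fell by 0.39. ALAS1 and UROD responded differently at the 2 oxygen levels (-0.42 ± 0.10, adjusted p = 0.0258, and 0.35 ± 0.09, adjusted p = 0.0417, edgeR).

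ATF4, the transcription factor of the integrated stress response, shares targets such as SLC7A11 with NRF2, and its list is given for that reason. Of 18 ATF4-linked genes 16 rose and none fell after FDX2 loss at 20% O2, where 17.6% of all tested genes rose, with a median log2 fold change of 0.87, DDIT3 (2.49), ASNS (2.13) and DDIT4 (2.01) among them. At 3% O2, 4 rose and 2 fell, PPP1R15A (0.94), DDIT3 (0.85) and ATF4 itself (0.52) up and VLDLR (-0.47) down among them, 33.3% called where 7.31% of all tested genes were. For 12 of the 18 the log2 response was lower at 3% than at 20% O2, where 7.29% of all tested genes differed in either direction and 4.08% in this one, CHAC1 (-1.90), DDIT4 (-1.74), DDIT3 (-1.64) and SESN2 (-1.46) among them. VLDLR (0.53 at 20% and -0.47 at 3% O2) and PSAT1 (0.48 and -0.33) were called in opposite directions at the 2 oxygen levels. DDIT3, DDIT4 and ASNS share 39.6%, 41.2% and 44.6% of their exonic bases with other genes. ASNS was also low, at a mean of 1.27 CPM with Doxy and 5.56 CPM without at 20% O2. Low oxygen with Doxy raised DDIT4 (2.71), VLDLR (1.27) and STC2 (0.66), 16.7% called where 2.02% of all tested genes were. Without Doxy it lowered 11 and raised 2, 72.2% called where 25.8% of all tested genes were. The core of the element that ATF4 binds, TGATGNAA, searched on both strands, was found in the 250-base window of 4 of the 16 of these genes with a RefSeq entry (25%), of 0 of the 8 NRF2 group genes and of 3.89% of all genes. The antioxidant response element core was found for 3 of the same 16 genes (18.75%) and for 9 of 28 other NRF2 targets (32.1%), where 13.2% of all genes held it.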

How the data were processed

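Gene counts of 12 poly(A) libraries (150-base reads, DNBSEQ-T7) were used as deposited. Per the labels and the submitters' processing notes, the authors aligned reads to GRCh38 with STAR, counted them with featureCounts and named DESeq2 for normalization, which was not applied to this table. Versions, annotation release, strand setting and treatment of multiply mapped or shared reads are not given in the sources used here. For 20% O2 + Doxy replicates 1 and 2 the labels report that a read file was lost after counting.

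Identifiers were matched to GENCODE 29 for positions and to current symbols (58207 of 58735). edgeR 4.0.16 in R 4.3.3 was run on the counts with TMM scaling, filterByExpr (minimum count 10, minimum total 15) and quasi-likelihood tests with 4 condition means and 8 residual degrees of freedom, with Benjamini-Hochberg adjustment over 16891 genes. Contrasts were wo Doxy minus + Doxy at each oxygen level, 3% minus 20% O2 at each Doxy state, and the difference of the 2 Doxy contrasts. The SE of a log2 fold change was taken from its F statistic. Likeness used log2 CPM with a prior count of 2. Levels per kilobase used the exonic bases of each gene. The text names all 9 genes, all NRF2 regulators, and up to 4 genes per other list and comparison with the largest called change, 5 CPM or more on average and libraries that do not overlap, with 5 genes most like HMOX1. Other names were added after their values were seen. The members, lists and tests were chosen with earlier results of these data known. Replicate numbers were checked for pairing by correlating deviations from condition means. All 3 same-number correlations exceeded 0.1 only between 20% O2 wo Doxy and 3% O2 wo Doxy (0.190 to 0.497, other pairings -0.473 to 0.231). Only there do the data hint that the numbers pair the libraries, and whether shared GC deviations gave this was not tested. Alternatives included DESeq2 1.42.0, size-factor scaling, other filters, the block, left-out libraries and, chosen after seeing the data, a GC correction (lowess offset per library) and the exclusion of 3 GC-rich libraries. The test script was tested on simulated data. No pair of replicates agreed within sampling noise (chi-square per degree of freedom 2.55 to 39.7). A few genes of the lists are not reported here by name.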

Additional observations from a re-analysis of the deposited data

Results flagged for a closer look

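An interaction test (edgeR, adjusted p under 0.05) found unequal responses to FDX2 loss at 3% and 20% O2 for 31 of the listed genes. Of all tested genes 7.29% were called. By list the share was 11.1% of the 9 transcripts, 33.3% of the regulators, 23.5% of the other NRF2 targets and 66.7% of the ATF4 list. It was 18.2% for glutathione handling, 16.7% for the thioredoxin and peroxiredoxin systems, and 14.3% each for NADPH supply and heme, with some genes shared between lists. The values below are the log2 response at 3% O2 minus that at 20% O2. In the group itself it was NQO1 (-0.54) alone. Among its regulators these were SQSTM1 (-0.92), BACH1 (-0.48), NFE2L2 (-0.31) and NFE2L3 (0.41), and among other NRF2 targets SLC7A11 (-1.39), ABCC3 (-0.92), TRIM16L (-0.84), TRIM16 (-0.42), FTL (-0.63), AKR1B1 (-0.48), UGDH (-0.37) and CBR3 (0.77). Genes of glutathione and thioredoxin handling were CHAC1 (-1.90), SLC3A2 (-0.71), GLRX5 (0.52), TXNIP (-1.86), SESN2 (-1.46) and SESN3 (-0.58). Of NADPH supply and heme synthesis they were ALDH1L2 (-1.54), MTHFD2 (-0.59), ALAS1 (-0.42) and UROD (0.35), and of the ATF4 list, beside those it shares with the lists above, ASNS (-2.13), DDIT4 (-1.74), ATF3 (-1.65), DDIT3 (-1.64), VLDLR (-0.998), CEBPG (-0.93), PSAT1 (-0.80) and STC2 (-0.71).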

How the results depend on the processing

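Of the 9 transcripts' values in the 5 comparisons, those that changed sign under another setting were not called in the reported fit, and the called ones kept their direction under every setting and left-out library. Calls of the 9 at FDX2 loss at 3% O2 (1 reported) numbered 2 with DESeq2 size factors, 0 without a filter on low counts, 2 with at least 10 counts in every library, 0 with the compared conditions fitted alone, 0 with the replicate block in that fit, 3 with the DESeq2 Wald test, 0 at 2-fold or more, and 4 with the GC correction and 4 without the 3 GC-rich libraries. The other 34 NRF2 targets (6 reported) gave 3, 2 with the block in 12 libraries, 1 for the compared conditions alone, 0 with the block there, 2 at an adjusted p of 0.01, 0 at 2-fold and 10 with the GC correction, the 3 being without a filter. Low oxygen with Doxy (2 and 0 reported) gave for the 9 transcripts 0 with the block in the compared conditions, 4 by DESeq2, 0 at 2-fold, and 4 and 4 for the 2 GC settings, and for the 34 it gave 1 without a filter, 3 by DESeq2, 7 with the GC correction and 2 without the GC-rich libraries. The difference of responses (1 and 8 reported) gave for the 9 transcripts 3 by DESeq2, 0 at 2-fold, and 4 and 4 for the 2 GC settings, and for the 34 it gave 5 without a filter, 4 with the block, 3 at an adjusted p of 0.01, 1 at 2-fold, 17 with the GC correction and 13 without the GC-rich libraries. At 2-fold or more, FDX2 loss at 20% O2 kept 2 of the 9 (5 reported) and 4 of the 34 (25 reported), and low oxygen without Doxy 0 of the 9 (6 reported) and 3 of the 34 (20 reported, 13 at an adjusted p of 0.01). With 1 library left out the counts ran, for the 9 and for the 34, from 3 to 4 and 20 to 24 at FDX2 loss at 20% O2, 1 to 3 and 2 to 7 at FDX2 loss at 3% O2, 2 to 3 and 0 to 2 for low oxygen with Doxy, 4 to 6 and 14 to 17 without Doxy, and 1 to 2 and 4 to 10 for the difference. The 3 of 9 at 20% O2 came without wo Doxy replicate 1 or 2, the 3 at 3% O2 and the 2 of 34 for low oxygen with Doxy without 3% O2 + Doxy replicate 3, the 2 of 9 for the difference without that library or 20% O2 + Doxy replicate 1, and the difference of the 34 was at 4 or 5 without any 20% O2 wo Doxy library, either + Doxy replicate 2, or 3% O2 wo Doxy replicate 2 or 3. Signs changed for GCLC at 20% O2 (-0.0077 without a filter, -0.024 without the GC-rich libraries), for SRXN1 in all 5 comparisons (0.039, -0.19, 0.089, -0.14 and -0.23 without the GC-rich libraries in the order of the text above, that is FDX2 loss at 20% and at 3% O2, low oxygen with and without Doxy and the difference, -0.014 at 3% O2 with the block in the compared conditions, -0.015 for low oxygen without Doxy with the GC correction and -0.034 with block and GC correction), for TXNRD1 at 3% O2 (0.0048 with the GC correction), for TXN in low oxygen without Doxy (0.0026, and 0.0029 with the block too) and the difference (0.041), and for GCLM in the difference (0.044), the last 4 with the GC correction. With 1 library left out, values that changed sign ran from -0.025 to 0.072 (GCLC), -0.37 to 0.038 (SRXN1) and -0.10 to 0.045 (TXN) at FDX2 loss at 20% O2, -0.069 to 0.00104 (TXNRD1) and -0.19 to 0.19 (SRXN1) at 3% O2, -0.30 to 0.11 (SRXN1) and -0.33 to 0.15 (OSGIN1) for low oxygen with Doxy, -0.12 to 0.26 (SRXN1) without Doxy, and -0.14 to 0.050 (GCLM), -0.012 to 0.42 (SRXN1) and -0.15 to 0.017 (TXN) for the difference. The cause of these changes was not tested, beyond fewer libraries and residual degrees of freedom in the smaller fits. Outside low oxygen without Doxy the replicate numbers were only numbers (same-number correlations -0.568 to 0.648), and the block moved GCLM at 20% O2 to an adjusted p of 0.0703. Over all genes the calls at FDX2 loss at 3% O2 went from 1235 to 3301 with the GC correction and 218 in the compared conditions alone, and for low oxygen with Doxy from 276 higher and 65 lower to 901 and 409 with the GC correction. For the difference they went from 1231 to 3186 with the GC correction and to 2568 without the 3 GC-rich libraries.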
